A study of Mus musculus with 8 samples.

Results

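The genes described here are 32 markers of the olfactory epithelium, the sensory lining of the nose, measured by bulk RNA sequencing in cells sorted from mouse molars. They comprised 13 genes of mature olfactory receptor neurons, 8 of immature neurons, 6 genes of progenitors and lineage transcription factors and 5 of supporting cells, out of 56748 genes in the count table. They were chosen because their transcripts had been seen in these tooth libraries, where the labels give no reason for them, so their presence and level are given as a description and carry no test. All 32 passed the filter on low counts that left 21508 genes.

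The libraries came from tdTomato+ cells isolated by fluorescence-activated sorting from mandibular molars at postnatal day 10, after tamoxifen at postnatal day 3, and prepared with a SMART-Seq v4 kit, which amplifies full-length cDNA and marks neither strand nor single molecules. The labels call the cells CXCL12+ apical papilla cells, mesenchyme beneath the developing root, give dental pulp as the tissue, and name dental follicle cells in the extraction protocol. The control group was cHet (Ctnnb1(+/-), 4 libraries) and the other group was cKO (Ctnnb1(-/-), 4 libraries). Ctnnb1 encodes β-catenin, the transcriptional effector of canonical Wnt signalling and a component of cell adhesion. Every library therefore carried at least 1 deleted copy of Ctnnb1, and no wild-type library was analysed here. The driver of the recombinase, the deleted exons, and whether libraries came from separate or pooled animals are not stated in the labels, so the spread behind every p-value is that of the libraries and could in part be technical. The libraries are named as in the column headers (cHet8, cHet11, cHet12 and cHet14, then cKO7, cKO9, cKO14 and cKO15), which give the group but cannot be matched to single sample labels.

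Total counts ran from 44444033 to 50051392 per library, and 25146 (cKO15) to 30308 (cHet11) genes had at least 1 count. CPM (counts divided by the library total in units of 1e6) were scaled by the trimmed mean of M-values (TMM). Ctnnb1 averaged 257 ± 40.2 CPM over the cHet and 277 ± 39.2 CPM over the cKO libraries (mean ± SD, n = 4 each), a log2 fold change of 0.11 (SE 0.15) with an edgeR adjusted p of 0.785, so the groups overlapped in the level of the gene as a whole, and reads of the deleted part were not counted on their own here. The edgeR quasi-likelihood test called 244 of all tested genes at a Benjamini-Hochberg adjusted p under 0.05, 232 of them higher in cKO. That number fell when any library other than cKO9 was left out. It was 0 without cHet12, cHet14 or cKO14, 4 without cHet11, and 8 without cKO7 or cKO15. Without cHet8 it was 155 higher and 1 lower, and without cKO9 it was 816 higher and 144 lower. Every call by edgeR named here was lost where the number was 0. The labelled cells' own markers were present. Of 10 genes of the dental papilla and labelled cells, 3 were called higher in cKO (Cxcl12, Smoc2 and Igfbp5), against 1.08% of all tested genes. All 10 had a positive log2 fold change (median 2.04). The groups of 9 did not overlap, with cKO higher, against 6.46% of all tested genes. The summed level of the 10 was 475 to 1277 CPM in cHet and 2750 to 5098 CPM in cKO, ranges that did not overlap.

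Olfactory receptor neurons detect odorants through a cascade in their cilia. A receptor activates the G protein Golf, adenylyl cyclase 3 makes cyclic AMP, a cyclic nucleotide-gated channel opens, and a calcium-gated chloride channel amplifies the current. The neurons are replaced throughout life from basal progenitors, which pass through an immature, axon-growing stage, while sustentacular (supporting) cells surround the neurons and metabolise inhaled compounds. None of these cells is a known resident of the dental papilla.

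Early B-cell factor (EBF) proteins, which were first described in this tissue as Olf-1, bind a near-palindromic sequence found before several olfactory neuron genes. The 250 bases before the RefSeq transcript starts (GRCm38.p6) were searched on both strands for CCCNNGGGA, in which N is any base, and for the same letters preceded by T, which is the fuller form of the site; a match shows only that these letters occur. Of the 32 genes, 24 had a promoter in the table, with 30 promoters among them. The fuller form occurred in 0.779% of 32851 promoters and in 1 of the 30, that of Gfy. CCCNNGGGA, which the fuller form contains and which was chosen after that form had been searched, occurred in 5.60% of all promoters. It occurred in 4 of the 30, those of Ano2, Cnga2, Gfy and Gng13, all from the mature group. Those 4 stretches are shown 5′ to 3′ on the coding strand because they are the genes of the set with a match, with a match in capitals (the fuller form in Gfy). They lie at chr6:125710938-125711187, + strand (Ano2), chrX:71991599-71991848, + strand (Cnga2), chr7:45179598-45179847, - strand (Gfy) and chr17:25716922-25717171, + strand (Gng13).
Ano2: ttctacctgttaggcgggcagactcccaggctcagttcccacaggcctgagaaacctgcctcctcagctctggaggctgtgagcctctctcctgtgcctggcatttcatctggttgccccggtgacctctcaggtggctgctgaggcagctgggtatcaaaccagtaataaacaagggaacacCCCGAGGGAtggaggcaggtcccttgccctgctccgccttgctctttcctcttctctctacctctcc
Cnga2: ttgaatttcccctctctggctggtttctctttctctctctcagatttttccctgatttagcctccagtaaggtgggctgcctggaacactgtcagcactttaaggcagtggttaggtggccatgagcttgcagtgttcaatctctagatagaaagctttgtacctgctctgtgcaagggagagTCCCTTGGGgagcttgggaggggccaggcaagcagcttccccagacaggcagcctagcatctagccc
Gfy: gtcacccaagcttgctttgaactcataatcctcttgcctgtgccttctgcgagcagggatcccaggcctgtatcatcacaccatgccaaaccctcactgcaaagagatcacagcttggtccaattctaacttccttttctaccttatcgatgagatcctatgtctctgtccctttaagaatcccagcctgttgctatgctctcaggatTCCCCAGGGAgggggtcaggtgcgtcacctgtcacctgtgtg
Gng13: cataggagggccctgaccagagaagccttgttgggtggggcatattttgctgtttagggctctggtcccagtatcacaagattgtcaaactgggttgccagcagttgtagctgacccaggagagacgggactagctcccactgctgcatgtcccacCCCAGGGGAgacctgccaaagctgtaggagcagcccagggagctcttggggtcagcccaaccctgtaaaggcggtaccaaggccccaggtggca

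The capital letters begin 67 bases before the start in Ano2, 67 in Cnga2, 42 in Gfy and 94 in Gng13. The homeodomain core TAATTA, a palindrome that Lhx2 and Emx2 are among the factors able to bind, occurred in 4.84% of all promoters. It occurred in 2 of the 30 promoters of the set, those of Neurog1 and Sult1c1. In 944 promoters of odorant receptor genes the shares were 0.424% for the fuller form, 2.33% for CCCNNGGGA and 18.1% for TAATTA. Whether any factor was bound was not measured.

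The most abundant transcripts of the set belonged to mature neurons. Per kilobase of exon, and averaged over the 8 libraries, Omp stood first at 1109 CPM per kilobase, followed by Gfy (873), Stoml3 (694), the secreted-protein gene Bpifb9b (532) and the growth cone gene Gap43 (395). At the other end stood Neurog1 (2.14), Kirrel3 (12.4), Ermn (13.3), Ncam2 (15.2) and Cngb1 (16.2). The length was that of all annotated exons of a gene merged, 11.33 kilobases for Ncam2 and 9.355 for Cngb1, which lowers the rank of long genes. Before division by length, Ncam2 and Cngb1 averaged 172 and 152 CPM, above Gng13 at 24.4 CPM. The 32 genes together took 1.47% to 2.29% of all counts in cHet libraries and 1.07% to 1.60% in cKO libraries, and the lowest gene in any library, Neurog1, still had 38 counts. The highest library exceeded the lowest by a median of 2.24-fold over the 32 genes, from 1.46-fold for Kirrel3 to 87.3-fold for Bpifb9b.

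**Figure D1:**
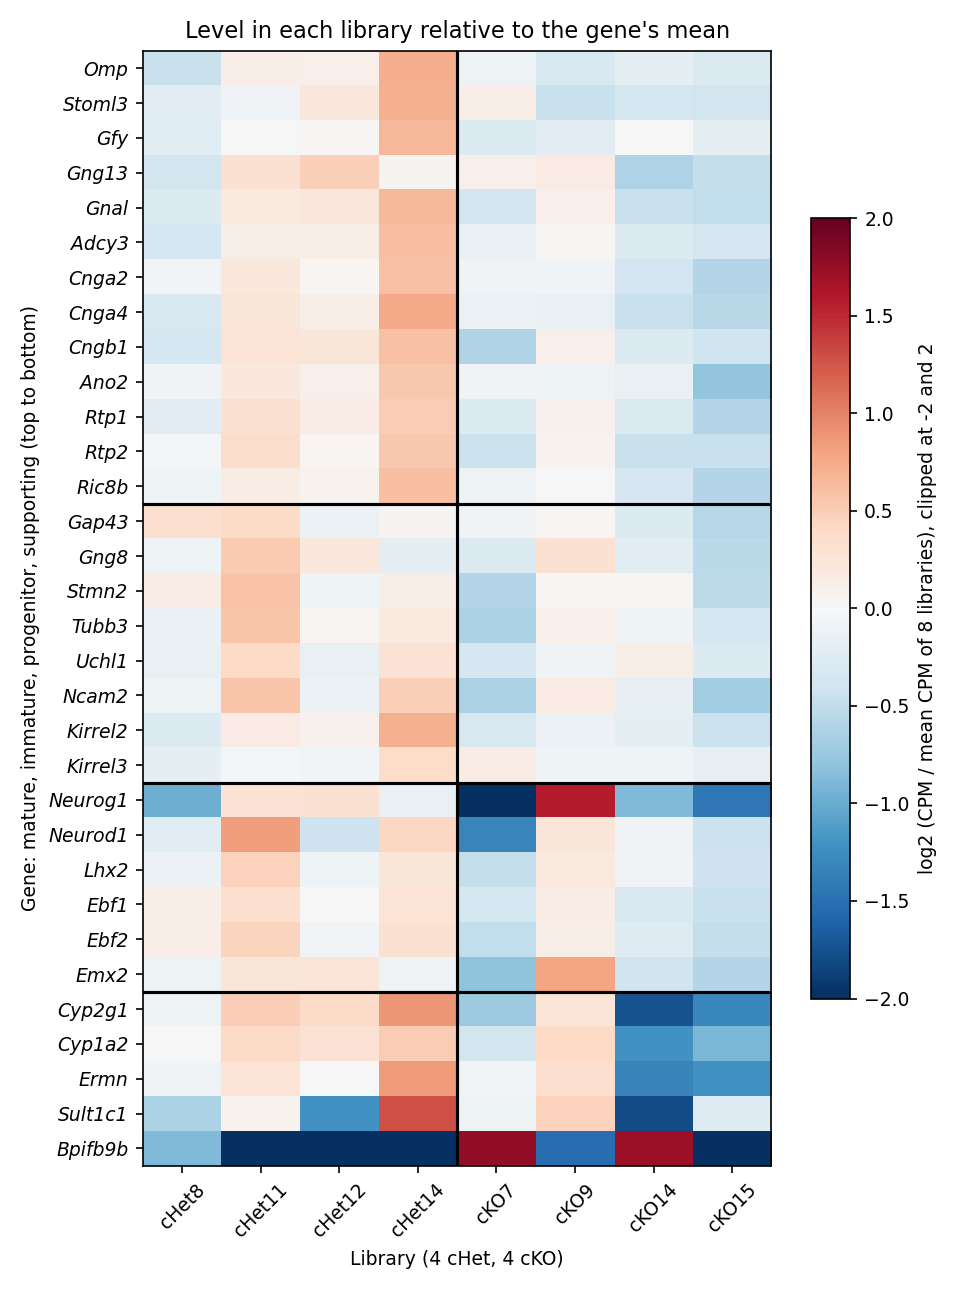
Level of each of the 32 genes (rows, grouped from mature neuron at the top to supporting cell at the bottom) in each library (columns, cHet left of the line and cKO right), as log2 of CPM over the gene's mean of the 8 libraries, with colours clipped at -2 and 2. The mature rows are reddest in cHet14, the immature and progenitor rows in cHet11, and Bpifb9b runs to its own extremes in cKO7 and cKO14.

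No gene of the 32 passed the test between cKO and cHet, where edgeR called 1.13% of all tested genes in either direction, 0.0558% as lower and 1.08% as higher in cKO. The smallest adjusted p was 0.182, for Rtp2. At an unadjusted p under 0.05 there were 12 of the 32, against 17.1% of all genes tested. The log2 fold change was negative, which means a lower fitted level in cKO, for 30 of the 32, against 52.5% of all genes, with a median of -0.44 against -0.03. The 32 genes were measured in the same 8 libraries, so the 30 are not separate observations. Other tools called some of the 32. DESeq2 called Bpifb9b as higher (3.82% of all genes higher) and none as lower (1.54% of all genes lower). limma's voom with quality weights called 5 of the 32 as lower (Rtp2, Ebf1, Ebf2, Cyp2g1 and Cyp1a2), against 1.26% of all genes. In bulk libraries, fewer cells of a type and less RNA per cell cannot be told apart, which holds for every level given here.

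**Figure D2:**
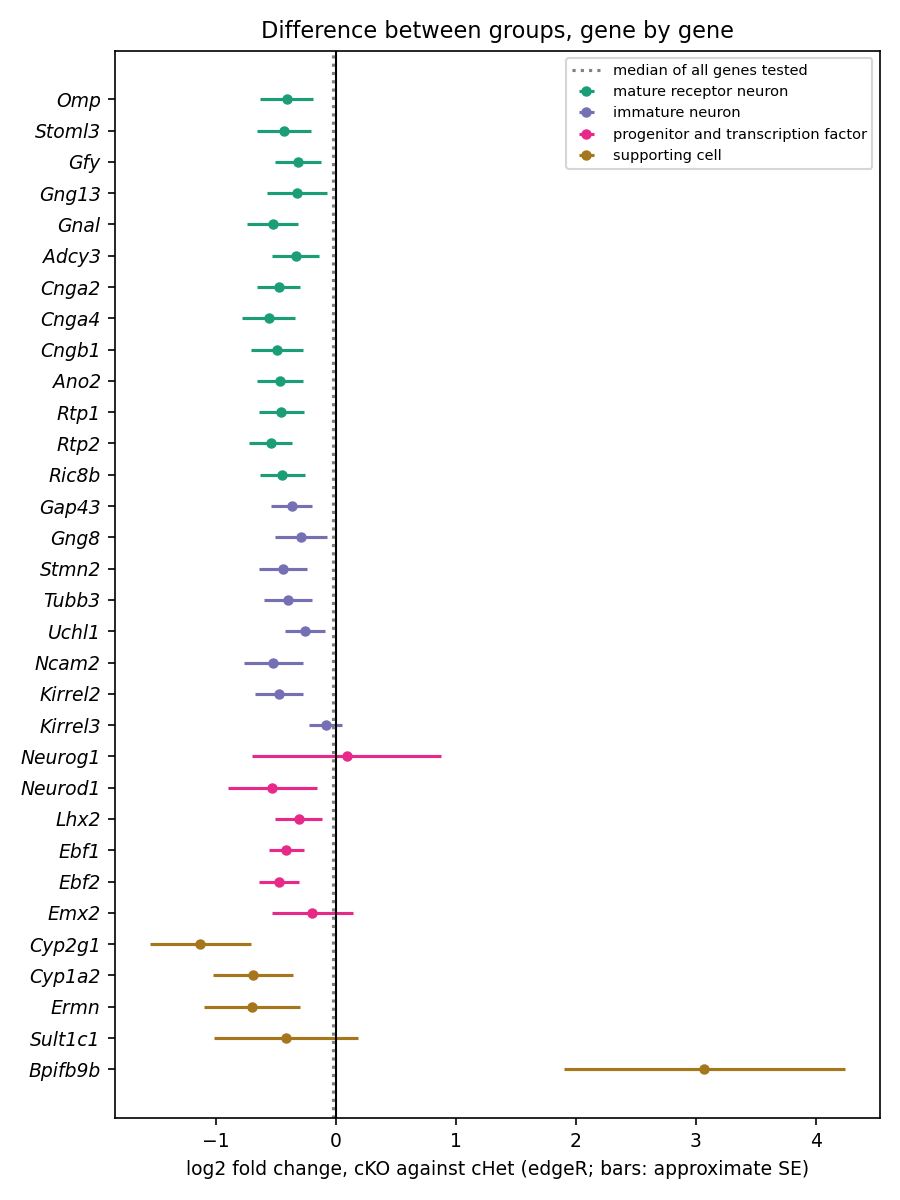
Log2 fold change of each gene in cKO against cHet from the edgeR fit (points), with an approximate standard error (bars), coloured by stage; the dotted line is the median of all genes tested. All points but Neurog1 and Bpifb9b lie left of 0, most between -0.6 and -0.2, and none passed the adjusted threshold.

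Omp (ENSMUSG00000074006.4), the olfactory marker protein of mature receptor neurons, stood at 1739, 2604, 2559 and 3940.5 CPM in cHet8, cHet11, cHet12 and cHet14 and at 2219, 1927, 2079 and 1945 CPM in cKO7, cKO9, cKO14 and cKO15, an order of libraries kept below. cHet14 was highest and cHet8 lowest of all, so the cHet libraries spanned the cKO ones. The log2 fold change (cKO against cHet) was -0.41 (SE 0.22), with an adjusted p of 0.394 by edgeR. Gfy (ENSMUSG00000095276.3), which encodes the Golgi protein goofy of these neurons, read 1362, 1602, 1645 and 2547 CPM in cHet and 1336, 1384, 1615 and 1420.4 CPM in cKO. The cKO libraries lay close together at 1439 ± 122 CPM against 1789 ± 521 CPM (SD, n = 4), again with cHet14 alone far above the rest (log2 fold change -0.31, SE 0.19, edgeR adjusted p 0.455). Without cHet14 the log2 fold change was -0.19 for Omp and -0.11 for Gfy.

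Stoml3 (ENSMUSG00000027744.5), a stomatin-family membrane protein of the cilia, stood at 1287, 1415, 1723 and 2435 CPM in cHet and 1646, 1102, 1175 and 1159 CPM in cKO. Its cKO7 value lay within the cHet range, while the other cKO libraries lay below every cHet library. Between the groups the log2 fold change was -0.43 (SE 0.22, edgeR adjusted p 0.369). The log2 value was -0.23 without cHet14.

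The transduction genes came next. Cnga2 (ENSMUSG00000005864.8), the principal subunit of the cyclic nucleotide-gated channel, read 761, 919.5, 814 and 1195 CPM in cHet and 759, 755, 611 and 530.0 CPM in cKO. Every cKO library was below every cHet library, with the closest pair, cHet8 and cKO7, at 761 and 759 CPM. The log2 fold change (cKO against cHet) was -0.47 (SE 0.18), with an adjusted p of 0.235 by edgeR. Ano2 (ENSMUSG00000038115.17), the calcium-gated chloride channel, read 224, 271, 249 and 340.0 CPM in cHet and 223, 218, 210.0 and 135 CPM in cKO. Here too the groups did not overlap, again narrowly between cHet8 and cKO7, and cKO15 lay far below the other cKO libraries. edgeR gave a log2 fold change of -0.47 (SE 0.19) with an adjusted p of 0.267. Cnga2 and Ano2 were the 2 genes of the 32 whose groups did not overlap with cKO lower, against 3.68% of all tested genes, and none did so with cKO higher, against 6.46%.

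The remaining mature genes overlapped between the groups. Gnal, the α subunit of Golf, ranged over 1049 to 1995 CPM in cHet and 896 to 1355 CPM in cKO, and Adcy3, adenylyl cyclase 3, over 308 to 596 CPM and 312 to 401 CPM. Gng13, a γ subunit of G proteins, was far lower, at 18.9 to 34.0 CPM and 15.8 to 27.2 CPM. The other channel subunits Cnga4 and Cngb1 ranged over 148 to 309 and 119 to 227 CPM in cHet and over 124 to 168 and 99.7 to 163 CPM in cKO. Rtp1 and Rtp2, which carry odorant receptors to the cell surface, ranged over 773 to 1267 and 444 to 658 CPM in cHet and over 593 to 948 and 330.3 to 475 CPM in cKO, and Ric8b, a chaperone of Golf, over 599 to 969.6 CPM and 423 to 639 CPM. Their log2 fold changes lay between -0.56 (Cnga4) and -0.32 (Gng13), with SEs from 0.18 to 0.25. The 13 mature genes gave a median of -0.45, and all 13 were negative.

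Some pairs of related genes kept steadier proportions than others. The CPM of Rtp2 was 0.449 to 0.574 times that of Rtp1 in every library, and the CPM of Cnga4 was 0.195 to 0.258 times that of Cnga2. The ratio of Cngb1, a further subunit of that channel, to Cnga2 was wider, from 0.131 (cKO7) to 0.221 (cHet12), as was that of Kirrel2 to Kirrel3, from 2.24 (cKO7) to 3.89 (cHet14). These ratios are not adjusted for gene length and are read only across libraries. Part of the exon sequence was shared with another gene for Gng13 (51.6% of its exon bases, with Chtf18), Adcy3 (22.1%, with Cenpo) and Gnal (7.63%, with Mppe1). Without strand, reads in those stretches cannot be assigned to either gene with certainty.

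Immature neuron genes were highest in cHet11 rather than cHet14 for 6 of 8. Gap43 (ENSMUSG00000047261.10), a protein of growing axons, stood at 751, 787, 552 and 625 CPM in cHet and 574, 620.4, 501 and 407 CPM in cKO. The groups overlapped, with cKO7 and cKO9 above cHet12. Between the groups the log2 fold change was -0.37 (SE 0.17, edgeR adjusted p 0.309). Stmn2 (ENSMUSG00000027500.11), a microtubule regulator of growing neurites, read 603, 808, 513 and 593 CPM in cHet and 363, 556, 553 and 381 CPM in cKO. cHet11 was highest and cKO7 lowest, with a log2 fold change of -0.44 (SE 0.20, edgeR adjusted p 0.305).

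Tubb3 (ENSMUSG00000062380.5), the neuronal β-tubulin, read 299, 477, 336 and 372 CPM in cHet and 211, 351, 307 and 256 CPM in cKO, and its cHet8 value was below the values of cKO9 and cKO14. The log2 fold change (cKO against cHet) was -0.40 (SE 0.20), with an adjusted p of 0.345 by edgeR. The log2 value was -0.26 without cHet11. Gng8, the G protein γ subunit of immature olfactory neurons, ranged over 61.8 to 100.4 CPM in cHet and 48.3 to 86.5 CPM in cKO, and Uchl1, a neuronal ubiquitin hydrolase, over 225 to 328 CPM and 198 to 269.7 CPM (18.1% of its exon bases are shared with Uchl1os). Ncam2, an adhesion molecule of olfactory axons, ranged over 158 to 252 CPM and 106 to 194 CPM.

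Kirrel2 and Kirrel3 encode adhesion molecules by which like axons sort together in the olfactory bulb. Kirrel2 ranged over 205 to 403 CPM in cHet and 183 to 228 CPM in cKO and, unlike most of its stage, was highest in cHet14. Kirrel3 was the steadiest gene of the 32, at 71.2 to 104 CPM and 71.5 to 88.8 CPM, with a log2 fold change of -0.09 (SE 0.14, edgeR adjusted p 0.815). That value became 0.023 without cHet14, so it has no stable direction. All 8 immature genes had negative fitted values, with a median of -0.38.

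Among the cKO libraries, cKO9 was the highest for all 6 progenitor and factor genes, as it was for all 4 supporting genes other than Bpifb9b and for 6 of 8 immature genes. Ebf2 (ENSMUSG00000022053.14), an EBF factor of the neuronal lineage, stood at 936, 1160.1, 819 and 1054 CPM in cHet and 610.3, 922, 711 and 617 CPM in cKO. All cKO libraries but cKO9 were below every cHet library. edgeR gave a log2 fold change of -0.47 (SE 0.17) with an adjusted p of 0.213. Ebf1 (ENSMUSG00000057098.15), its close relative, read 457, 521, 417 and 499 CPM in cHet and 324, 457, 336 and 306 CPM in cKO. It showed the same placement, with cKO9 alone reaching into the cHet range (log2 fold change -0.41, SE 0.15, edgeR adjusted p 0.216), and the ratio of Ebf1 to Ebf2 CPM stayed between 0.449 and 0.532 in all libraries.

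Lhx2 (ENSMUSG00000000247.12), a LIM homeodomain factor needed for odorant receptor choice, read 358, 536, 365 and 458 CPM in cHet and 278, 446, 369.8 and 291 CPM in cKO. cKO9 and cKO14 lay above cHet8 and cHet12, with an edgeR adjusted p of 0.471 (log2 fold change -0.31, SE 0.19, or -0.19 without cHet11). Neurog1 (ENSMUSG00000048904.6), the proneural factor of dividing precursors, was the least abundant gene, at 1.83, 4.40, 4.46 and 3.26 CPM in cHet and 0.847, 10.7, 1.96 and 1.34 CPM in cKO. Its highest and lowest values were both cKO libraries, cKO9 and cKO7, a 12.7-fold range. Its fitted difference was 0.09 (SE 0.79, edgeR adjusted p 0.972), and it was -1.34 without cKO9.

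Neurod1, which follows Neurog1 in the lineage, read 54.4, 112, 47.2 and 83.2 CPM in cHet and 25.2, 74.0, 59.5 and 46.5 CPM in cKO, and its log2 fold change was -0.53 with an SE of 0.37 (-0.26 without cHet11 and -0.33 without cKO7). Emx2, a homeodomain factor, read 102, 129.8, 131 and 104 CPM in cHet and 62.6, 189.7, 82.7 and 72.9 CPM in cKO, with cKO9 above every other library. Its log2 fold change of -0.20 (SE 0.34) was -0.69 without cKO9, -0.055 without cKO7 and -0.068 without cKO15. Ebf1, Ebf2 and Lhx2 are also expressed outside the olfactory lineage, among others in mesenchyme, and which cells they came from was not tested.

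The supporting cell genes varied most. Cyp2g1 (ENSMUSG00000049685.9), an olfactory cytochrome P450, stood at 312, 470.2, 435 and 611 CPM in cHet and 202, 399, 99.9 and 135 CPM in cKO. All cKO libraries but cKO9 lay below every cHet library. Between the groups the log2 fold change was -1.13 (SE 0.42, edgeR adjusted p 0.228), the most negative value of the 32. As a ratio to Omp CPM, Cyp2g1 held between 0.155 and 0.181 in the cHet libraries but spread from 0.0480 (cKO14) to 0.207 (cKO9) in the cKO libraries.

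Cyp1a2, another cytochrome P450, ranged over 35.8 to 51.1 CPM in cHet and 15.6 to 47.6 CPM in cKO, and Ermn, which encodes the cytoskeletal protein ermin, over 45.9 to 86.6 CPM and 19.1 to 60.5 CPM. In both, cKO14 and cKO15 were lowest and cKO9 was level with the cHet libraries (log2 fold changes -0.69 and -0.70, SEs 0.33 and 0.40). Sult1c1 (ENSMUSG00000023943.8), a sulfotransferase, read 105, 170.5, 70.3 and 397 CPM in cHet and 151, 223, 46.9 and 136 CPM in cKO. Its SD within cHet (186 ± 147 CPM) exceeded the difference from the cKO mean (139 ± 72.1 CPM) (log2 fold change -0.42, SE 0.60, edgeR adjusted p 0.789), and the sign turned to 0.24 without cHet14.

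Bpifb9b (ENSMUSG00000067996.6), a secreted protein of the BPI fold family, differed from the rest of its group. It read 594, 156, 143 and 42.9 CPM in cHet and 3744, 382, 3599.7 and 132 CPM in cKO. cKO7 and cKO14 stood far above all others, cHet8 came next, and cKO15 lay below 3 of the 4 cHet libraries. The log2 fold change (cKO against cHet) was 3.07 (SE 1.17), with an adjusted p of 0.238 by edgeR. DESeq2 called it higher in cKO at an adjusted p of 0.0429, where it called 3.82% of all genes higher.

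Of 12 genes of Bowman's gland, the mucus gland beneath the epithelium, 6 were highest in cKO7 or cKO14 like Bpifb9b (among them Bpifb9a and Bpifb5, named after their values were seen). Another 4 were highest in cHet8 (Obp1a, Obp2a, Bpifb3 and Bpifb6), 1 in cKO9 (Bpifb4) and 1 in cHet14 (Aqp5). Bpifb9a read 93.2, 22.0, 17.2 and 4.58 CPM in cHet and 776, 73.1, 925 and 25.0 CPM in cKO, and Bpifb5 read 39.3, 4.63, 2.25 and 2.98 CPM and 231, 15.2, 182 and 6.42 CPM. The CPM of Bpifb9a was 0.107 to 0.157 times that of Bpifb9b in the cHet libraries and 0.189 to 0.257 times in the cKO libraries, ranges that did not overlap. The level of Bpifb9b changed 87.3-fold over the same libraries. Bpifb9a and Bpifb9b are close relatives, and reads could have been shared between them. The summed CPM of the 12 gland genes, most of it from Bpifb9a in cKO7 and cKO14, was 743, 163, 94.9 and 48.9 in cHet and 1180.3, 193, 1652 and 65.0 in cKO, of which 0 were called by edgeR. Their part in the Bpifb9b values was not tested.

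**Figure D3:**
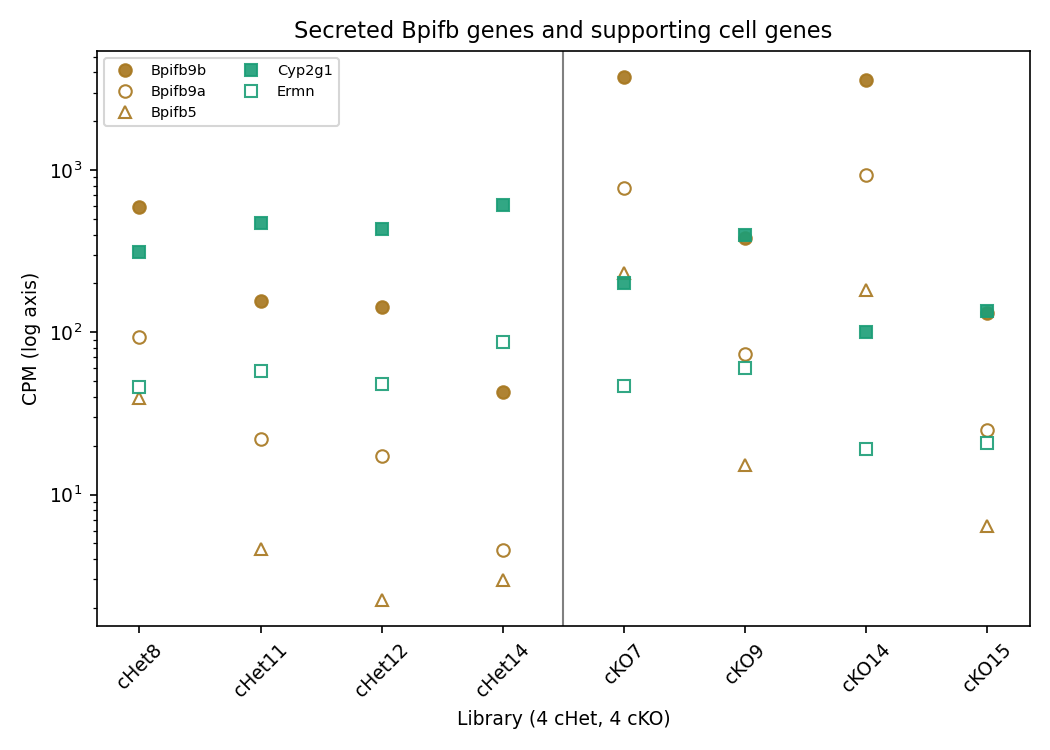
CPM (log axis) of Bpifb9b, Bpifb9a and Bpifb5 (brown) and of the supporting cell genes Cyp2g1 and Ermn (green squares) in each library, cHet left of the line and cKO right. The brown symbols peak together in cKO7 and cKO14, where Bpifb9b stood above all other libraries, while Cyp2g1 and Ermn were low in cKO14.

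To compare the stages, the log2 CPM of the genes in each stage were averaged per library. The mature score was 8.70, 9.12, 9.08 and 9.51 in cHet and 8.76, 8.88, 8.61 and 8.47 in cKO, or 9.10 ± 0.33 against 8.68 ± 0.18 (SD, n = 4). The immature score was 7.95 ± 0.22 in cHet and 7.60 ± 0.22 in cKO, and the progenitor and factor score was 7.05 ± 0.26 and 6.60 ± 0.61. The mean difference between the groups was -0.43 for mature, -0.35 for immature and -0.44 for progenitor and factor genes, and the groups overlapped in every stage. The progenitor and factor difference moved to -0.25 without cKO7 and -0.73 without cKO9.

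The supporting cell score depended on Bpifb9b. Over all 5 genes it was 6.92 ± 0.20 in cHet and 6.79 ± 0.70 in cKO (difference -0.13), and over the other 4 genes, a choice made after the values of Bpifb9b were seen, it was 6.83 ± 0.50 and 6.03 ± 0.81 (difference -0.81, or -0.50 without cKO14). The 4-gene score read 6.42, 6.93, 6.49 and 7.50 in cHet and 6.31, 6.98, 5.11 and 5.70 in cKO. cKO14 and cKO15 were low and cKO9 was above 3 of the 4 cHet libraries. Set against the mature score of the same library, it was -2.27 ± 0.24 in cHet and -2.65 ± 0.67 in cKO, with cKO14 lowest at -3.50.

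Relative to the mature score, the immature score was -1.15 ± 0.26 in cHet and -1.08 ± 0.16 in cKO, and the progenitor and factor score was -2.06 ± 0.28 and -2.08 ± 0.53. The proportions of the stages to one another therefore differed between libraries of 1 group as much as between the groups. The ratio of Gap43 to Omp CPM, a simple measure of immature against mature genes, was 0.431, 0.302, 0.216 and 0.159 in cHet and 0.259, 0.322, 0.241 and 0.209 in cKO, so the extremes were both cHet libraries (cHet8 and cHet14).

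**Figure D4:**
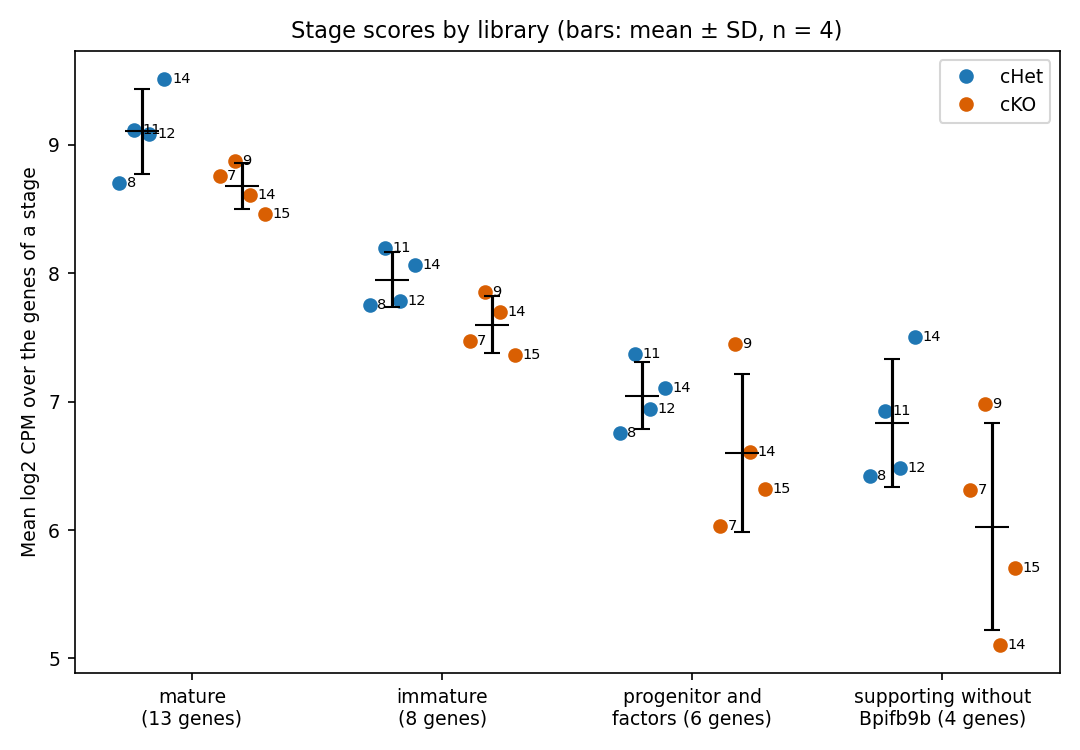
Mean log2 CPM over the genes of each stage in each library (points, numbered as in the column headers; cHet blue, cKO orange), with the mean ± SD of 4 libraries. The groups overlap in every stage; cHet14 tops the mature stage, and cKO9 lies well above the other cKO libraries in the progenitor stage and in the supporting stage without Bpifb9b.

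The stages also differed in which library was highest. cHet14 was the highest of the 8 libraries for 12 of 13 mature genes and for 4 of 5 supporting genes, but for none of the 6 progenitor and factor genes. cHet11 was highest for 6 of 8 immature genes and 4 of 6 progenitor and factor genes, and for no mature gene. cKO15 was lowest for 12 of the 32 genes and cKO7 for 10, of which 5 were progenitor and factor genes.

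Over all stages, cKO9 was the highest cKO library for 23 of the 32 genes. The count of genes whose groups did not overlap rose most without cKO9, though leaving out a library can only keep or raise this count. Without cKO9, 13 of the 32 were lower in cKO with no overlap, against 10.5% of all tested genes. Without cHet8 it was 11, of which 9 were mature, against 6.95%. Leaving out any other library gave 2 to 5, against 4.50% to 6.49% of all tested genes, so that 2 of 32 is near the background. Without cKO9, edgeR called 4 of the 32 lower in cKO (Ebf1, Emx2, Cyp2g1 and Cyp1a2, log2 fold changes -0.56, -0.69, -1.65 and -1.09), where it called 0.648% of all genes lower.

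Odorant receptor genes, which are not among the 32, were counted as well, since each mature neuron expresses a single receptor. Of 1107 receptor genes, named by the Olfr symbol and without pseudogenes, 1075 had at least 10 counts in some library and 329 in all 8. Their summed level was 8201 CPM, 10439.9 CPM, 8633 CPM and 11838 CPM in cHet and 6432 CPM, 8812 CPM, 5883 CPM and 5715 CPM in cKO. cKO9 lay within the cHet range and the other cKO libraries lay below it. The means were 9778 ± 1681 and 6710.3 ± 1434 CPM (SD, n = 4), with an exact two-sided permutation p of 0.0857 (0.257 adjusted over the 3 receptor measures compared). The smallest p that 4 against 4 allows is 0.0286. Receptor genes were counted after olfactory transcripts had been seen in these libraries, so the permutation p-values of the 3 measures are given as a description only.

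The number of receptor genes with at least 10 counts was 704, 1015, 768 and 889 in cHet and 724, 1003, 817 and 740 in cKO (844 ± 137 and 821 ± 128, n = 4, exact permutation p 0.8, adjusted 0.8). It was highest in cHet11 and cKO9, the same libraries that were high for the progenitor and factor score. These libraries also had the most genes of any kind with a count, 30308 in cHet11 and 28461 in cKO9. The other libraries had 25146 to 27187, and among them the number of receptor genes did not follow the number of all genes detected. cHet8 had 27103 genes with a count but the fewest receptor genes (704), while cHet14 had 26947 and 889. The 10 highest receptor genes of each library held 7.62% to 11.7% of its receptor CPM in cHet and 7.76% to 11.7% in cKO (exact permutation p 0.771, adjusted 0.8), so receptor expression was spread over many genes in every library. Reads of near-identical receptors could have been shared, so single receptor genes are uncertain.

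Of 966 receptor genes tested, 73.8% had a negative log2 fold change, against 52.5% of all genes. Their median was -0.52, against -0.03. They were measured in the same 8 libraries, so they are not separate observations. The groups of 37 did not overlap with cKO lower, against 3.68% of all tested genes, and those of 5 with cKO higher, against 6.46%. edgeR called 3 of the 966, against 1.13% of all tested genes. Olfr309 was lower in cKO, at 47.8, 39.6, 27.0 and 56.3 CPM against 91.3, 110.2, 81.5 and 116 CPM in cHet (adjusted p 0.04997). Olfr116 was lower as well, at 12.5, 10.7, 12.9 and 15.3 CPM against 29.4, 25.4, 34.7 and 29.1 CPM in cHet (adjusted p 0.0328). Olfr1181 was higher in cKO: it was at 0, 0.0190, 0 and 0 CPM in cHet, at or under the floor of 3 counts (0.0599 to 0.0675 CPM), and at 14.8, 2.71, 4.87 and 14.2 CPM in cKO (adjusted p 0.0180). It passed the filter on low counts through the cKO libraries alone, so its adjusted p adds no support to that difference. The most abundant receptor gene, Olfr536, ranged from 81.7 to 160.3 CPM over the libraries.

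**Figure D5:**
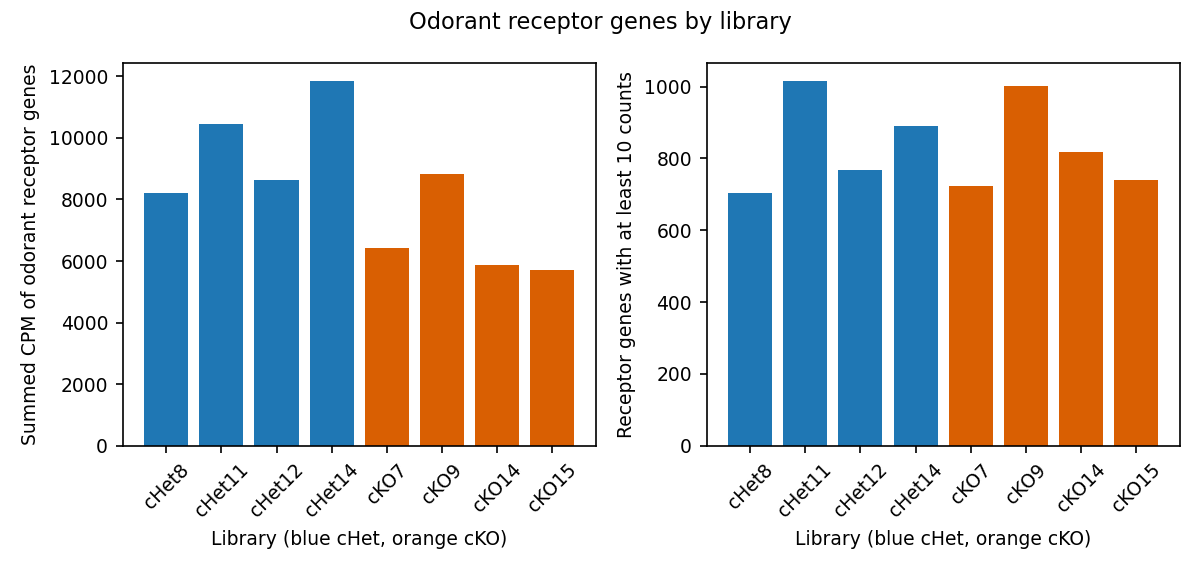
Summed CPM of 1107 odorant receptor genes (left) and number of receptor genes with at least 10 counts (right) in each library, cHet in blue and cKO in orange. The summed level is lower in cKO7, cKO14 and cKO15 than in any cHet library, while the number of detected receptor genes peaks at 1015 in cHet11 and 1003 in cKO9.

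Further genes of the same cell types were taken from lists made from textbook knowledge. None was called by edgeR among 12 other mature genes (10 of 12 negative, median -0.43), 14 other immature genes (10 of 14, -0.28), 14 other progenitor and lineage factors (12 of 14, -0.33) and 12 other supporting cell genes, of which 11 were tested (9 of 11, -0.42). The most abundant were Umodl1 (856 ± 262 CPM in cHet, 604 ± 89.4 CPM in cKO) among mature genes and Stmn1, a microtubule regulator (909 ± 119 and 698 ± 109 CPM), among immature genes. Among progenitor genes it was Sox11, a factor of young neurons (397 ± 89.7 and 326 ± 109 CPM), and among supporting genes Sec14l3, a lipid-binding protein (758 ± 282 and 418 ± 250.1 CPM). Insm1, a factor of progenitors leaving the cell cycle, read 175, 252, 306 and 170.2 CPM in cHet and 132, 517, 134 and 106 CPM in cKO, so that cKO9 stood above the other libraries there as well.

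Other cell types were read from marker lists in the same libraries. All 11 pan-neuronal genes had negative values (median -0.39, 0 called), led by the synaptic gene Snap25 at 313 ± 42.3 and 222 ± 18.4 CPM (edgeR adjusted p 0.097). Of 10 markers of trigeminal and other somatosensory neurons, 6 were above 1 CPM in every library and the list summed to 458 to 657 CPM in cHet and 294 to 667 CPM in cKO, most of it from Scn9a (239 to 587 CPM), a sodium channel that olfactory neurons also express. The defining markers Pou4f1, Trpv1 and Scn10a reached at most 0.453, 0.403 and 0.108 CPM in any library. Markers of olfactory bulb and cortex neurons summed to 15.2 to 39.0 CPM in cHet and 17.5 to 26.2 CPM in cKO.

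Non-neuronal lists also ran beside these genes. Respiratory ciliated cell markers summed to 225 to 295 CPM in cHet and 156 to 315 CPM in cKO, with Scgb1a1, a secretory cell marker, at 0 in all 8 libraries, and microvillar cell markers to 25.9 to 29.1 CPM and 18.5 to 40.2 CPM. Horizontal basal cell markers, which dental epithelium shares, summed to 132 to 270.0 CPM and 139 to 399 CPM, and ensheathing glia and Schwann cell markers to 104 to 529 CPM and 191 to 381 CPM. Ameloblast genes, of the enamel-forming cells, summed to 2314 to 11465 CPM in cHet and 4712 to 8553 CPM in cKO, and macrophage markers to 101.0 to 323 CPM and 51.5 to 151 CPM.

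The summed level of 12 general mesenchyme genes was 3611 to 11906 CPM in cHet and 13129 to 25585 CPM in cKO, with no overlap between the sums. Of the 12 genes, 1 (Prrx1) was called higher in cKO by edgeR, against 1.08% of all tested genes. A positive log2 fold change was found for 10 of the 12, where 52.5% of all tested genes had a negative one. The groups of 4 did not overlap, with cKO higher, against 6.46% of all tested genes. CPM values are shares of a library, so a larger share of mesenchymal RNA and a smaller olfactory share cannot be told apart from a change in olfactory RNA alone. Scaled to the mesenchyme list, the median log2 fold change of all tested genes was -1.33 and that of the 32 genes -1.75, with 30 of the 32 below the median of all genes. The source of the olfactory transcripts in these sorted cells was not tested.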

How the data were processed

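Bulk RNA sequencing of 8 libraries was analysed from the count table that the authors deposited, which holds raw read counts per gene for 56748 Ensembl gene identifiers. Per the submitters' processing notes, reads were trimmed with Trim Galore and aligned with STAR to GRCm39; neither the counting tool nor its annotation is named there. Groups were read from the column headers. Symbols were assigned to 52073 identifiers, and the identifier with the highest count was kept for each symbol. Counts were scaled by TMM and tested with edgeR 4.0.16 (R 4.3.3) by quasi-likelihood with Benjamini-Hochberg adjustment over 21508 genes left by its expression filter, all 8 libraries in 1 fit without covariates. The SE was derived from the log2 fold change and its F statistic, and is approximate. Each stage score averages log2 CPM (prior count 2) over the genes of the stage. Exon lengths and shared exon bases came from a GRCm38 annotation (GENCODE), used for lengths only, and promoters from RefSeq (GRCm38.p6). DESeq2 1.42.0, limma 3.58.1 voom, other scalings and filters, and leaving out each library were the alternatives. The scripts were tested on simulated data. The members and lists were chosen with earlier results of these data known. Genes given with the value of every library are the 3 with the highest mean CPM in each stage, any of the 32 that edgeR called over all 8 libraries (there were none) and any of the 32 whose groups do not overlap; Neurog1, Neurod1, Emx2, Bpifb9a, Bpifb5 and Insm1 were added after their values were seen.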

Additional observations from a re-analysis of the deposited data

Results flagged for a closer look

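In groups of 4 libraries, 6 of 78 groups examined held a value set apart from its neighbours by a larger part of the group's range than Dixon's 95% critical value allows; chance gives about 1 such group in 20. All 6 were in cKO. Stoml3 was at 1646 CPM in cKO7, with the nearest cKO library at 1175 CPM. Ano2 was at 135 CPM in cKO15, with the nearest at 210.0 CPM. The other 4 were high values of cKO9: Gnal at 1355 CPM (nearest 968 CPM), Rtp2 at 475 CPM (nearest 334 CPM), Neurog1 at 10.7 CPM (nearest 1.96 CPM) and Emx2 at 189.7 CPM (nearest 82.7 CPM).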

How the results depend on the processing

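The count of the 32 genes called was 0 in edgeR and in 14 of 17 alternative fits. It was 1 in DESeq2 (Bpifb9b) and 5 in voom with quality weights (Rtp2, Ebf1, Ebf2, Cyp2g1 and Cyp1a2, all lower in cKO, against 1.26% of all genes), and 0 to 4 with a library left out, where the 4 came without cKO9. Of 543 single-gene values, 527 kept their direction and side of the threshold, 10 passed it newly and 6 changed sign: Neurog1 to -0.78 in voom and -1.08 under mesenchyme scaling, and with a library left out Kirrel3 (-0.17 to 0.023, positive without cHet14), Sult1c1 (-0.74 to 0.24, positive without cHet14) and Neurog1 (-1.34 to 0.37, negative without cHet8 or cKO9). Scaling to mesenchyme genes moved the score differences to -1.60 (mature), -1.53 (immature), -1.62 (progenitor and factor), -1.31 (supporting) and -1.98 (supporting without Bpifb9b), beside a shift of all genes to a median of -1.33. The supporting score difference was -0.35 to 0.14 with a library left out, and positive only without cKO15. The causes were not tested. No paired analysis was possible because the columns do not carry the replicate numbers of the labels, so the planned replicate block was not run. Depth did not leave any of the 32 genes under the floor of 3 counts, but 4 libraries per group limit the size of difference that can be called.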

Other observations

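Chemosensory receptors outside the odorant receptor family were also counted. Trace amine receptors, which a small class of olfactory neurons uses, summed to 15.5 to 72.9 CPM over the libraries, with cKO15 lowest and cHet14 highest. Vomeronasal receptors of the V1R family ranged from 6.60 CPM (cKO7) to 210.6 CPM (cHet11) and those of the V2R family from 7.78 CPM (cKO7) to 118 CPM (cHet11). Trpc2, the channel of vomeronasal neurons, was at 0 in all libraries, but 100% of its exon bases are shared with other genes, so its count of 0 says nothing of its level.

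The odorant-binding protein genes Obp1a and Obp2a, singled out after their values were seen, stood at 125 and 161 CPM in cHet8 and at no more than 0.602 and 23.5 CPM in the other libraries. Dmbt1, a secreted mucosal protein, stood at 374 CPM in cKO14 and at 0.306 to 41.1 CPM elsewhere. Foxj1, the factor of motile cilia, was highest in cKO9, at 93.8 CPM.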
